A study of Mus musculus with 40 samples.

Results

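The colonic mucosa of mice mono-associated with Escherichia coli Nissle was set against the colonic mucosa of conventional mice, with 10 samples in each group, which are 20 of the 40 samples of the series. Members were chosen by the sample labels alone: the E. coli Nissle samples (mono-associated, 21 days of colonisation) and the samples labelled CV (conventional, with no time of colonisation given). The remaining samples were 10 germ-free controls and 10 samples mono-associated with E. coli CEC for 21 days. The sources used here do not state mouse strain, sex or age. The series' design text says that equal amounts of RNA of the mice were pooled, while separate samples carry the label of each group, so the p-values rest on the spread among samples of unstated origin and may reflect technical spread alone.

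E. coli Nissle is a non-pathogenic gut strain used as a probiotic. In a mono-associated mouse it is the only living bacterium, so the mucosa meets the products of a single facultative anaerobe. A conventional mouse carries a full community, mostly of strict anaerobes, which ferments fibre to short-chain fatty acids and transforms bile acids. The colonic mucosa faces these microbes with a layer of absorptive and mucus-secreting epithelial cells, and with the immune and stromal cells below it. The comparison asks how mucosa that has met 1 strain differs from mucosa that has met a full microbiota.

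Each of 224 TaqMan assays on a customized OpenArray card, a plate of very small PCR wells, gave a threshold cycle (Ct), and each cycle less stands for about double the template. Relative expression in log2 units was computed per sample by subtracting the assay's Ct from the median Ct of the 203 assays with no undetermined well. The files do not pair the assay IDs with genes, so assays are given by their ID, no gene function is stated, and the markers of colonic mucosa could not be looked up. Measured Ct in the 20 samples ran from 13.07 to 32.07. The wells undetermined at 40 cycles numbered 93 in Nissle and 92 in conventional samples, with 6 to 13 in a sample. Another 34 and 39 values equalled a mean of other values of their group and were read as filled in before deposit. Both kinds were left missing as assay values. Filled-in values of the 203 assays still entered the sample median. The mucosa is a mixture of cells, and fewer cells of a type and less RNA per cell cannot be told apart.

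Along the first principal component of the 20 samples, computed on the 170 assays measured in all of them, Nissle samples scored between -12.69 and 0.28 and conventional samples between 1.96 and 11.24. This component held 43.6% of the variance. Nissle replicates 4 and 5 lay nearest the conventional samples, at 0.28 and 0.19, and conventional replicate 4 lay nearest the Nissle samples, at 1.96. The same 2 Nissle samples were the closest pair of the 20, with a median absolute difference of 0.231 log2 units over the assays, against a median of 0.517 between Nissle samples and 0.45 between conventional samples. Nissle replicate 8 stood apart on the second component (16% of the variance), at 10.62.

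**Figure D1:**
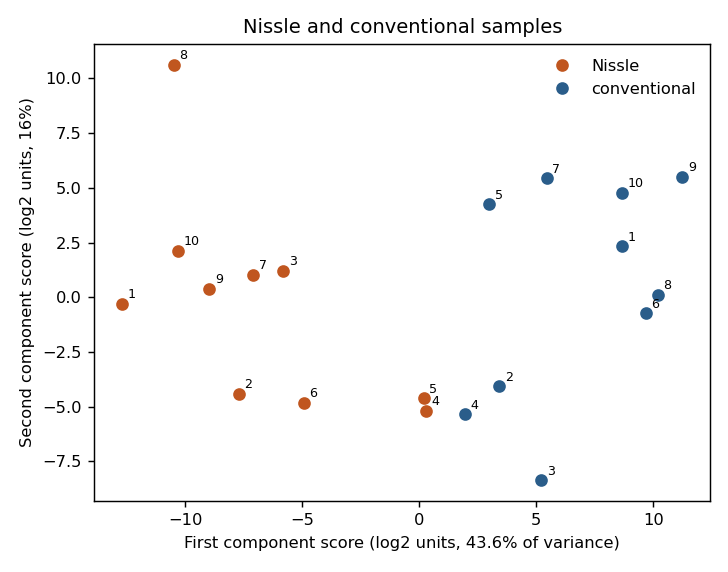
Scores of the 10 Nissle and 10 conventional samples on the first and second principal components (log2 units), each point 1 sample marked with its replicate number. Nissle samples lie at or below 0.28 on the first component and conventional samples at or above 1.96.

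Of the 215 assays measured in at least 5 samples of each group, 56 changed (26.0%; limma, adjusted p under 0.05), 39 higher in Nissle (18.1%) and 17 lower (7.91%). The changes toward lower levels were the larger ones. Among the lower assays 13 of 17 differed by more than 2-fold and 8 by more than 4-fold, with a median difference of -1.59 log2 units. Among the higher assays 14 of 39 differed by more than 2-fold and 5 by more than 4-fold, with a median of 0.81. Over all 215 assays the median difference was 0.17, and the median standard error of a difference was 0.27.

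**Figure D2:**
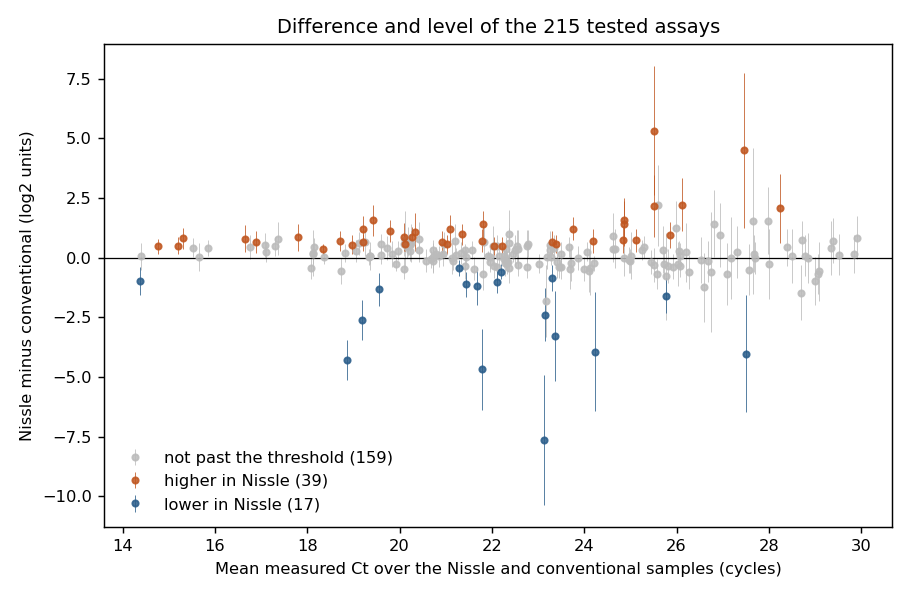
Nissle minus conventional difference (log2 units) against the mean measured Ct of the 20 samples (cycles; a lower Ct is a higher level) for the 215 tested assays, with 95% intervals from limma as bars. The 17 lower assays reach -7.64, and most of the 39 higher assays lie below 1 log2 unit.

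The balance between higher and lower assays depended on the normalizer. The sample median Ct was 22.30 ± 0.488 cycles in Nissle (SD, n = 10) and 21.96 ± 0.288 in conventional samples, a difference of 0.34 cycles (permutation test, two-sided, p = 0.0748), which subtraction of the median adds to the raw difference of a typical assay. Without normalization 3 assays were higher and 18 lower, and the median difference over all assays was -0.16. Scaled to the 10 most stable assays, 10 were higher and 45 lower, around a median of -0.25. With the median of the 153 assays measured in all 40 samples 54 were higher and 16 lower, around a median of 0.24. The mean of these 153 assays gave 42 higher and 18 lower. Of the 17 assays lower in Nissle, 16 passed in the same direction under all 5 normalizers. The exception was Mm00504022_m1, which was 1.35-fold lower (limma, adjusted p = 0.0386) and was picked out after its values had been seen. Of the 39 assays higher in Nissle, 3 passed under all 5 normalizers: Mm00655850_m1, Mm04214158_s1 and Mm04209483_m1. The other 36 are therefore higher relative to the sample median, and their calls did not hold on every scale. The scales tried were uneven: the median difference moved from 0.17 down to -0.25 but up only to 0.24. A downward shift works against higher calls and in favour of lower ones, so the lower calls were hardly put to the test. The 16 of 17 and the 3 of 39 therefore cannot show that the lower calls are the firmer.

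**Figure D3:**
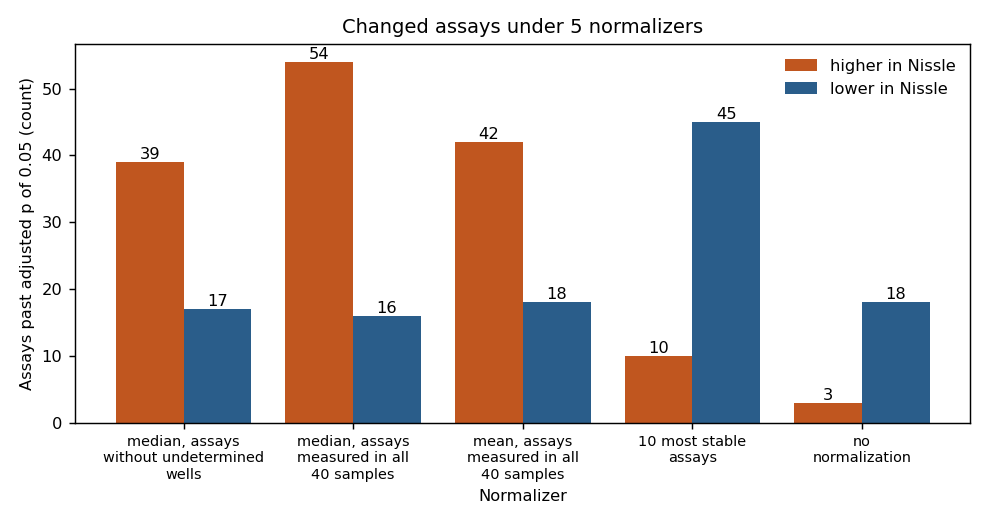
Number of assays past an adjusted p of 0.05 (limma), higher or lower in Nissle than in conventional samples, under 5 normalizers. The count of higher assays moves between 3 and 54, while that of lower assays is 16 to 18 under 4 of the normalizers and 45 with the 10 most stable assays.

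The largest difference belonged to Mm00505670_m1, which was far lower in Nissle than in most conventional samples. Nissle samples ran from -5.93 over a median of -4.75 to -3.52, and conventional samples from -5.91 over a median of 5.55 to 7.32. The conventional group was split: replicates 2, 3 and 4 lay at -3.82, -3.21 and -5.91, inside or next to the Nissle range, and the other 7 at or above 4.92. The difference was -7.64 ± 1.34 log2 units (standard error; limma, adjusted p = 9.66e-05), or 199.7-fold. It was 333-fold without conventional replicate 2, 318-fold without replicate 3, 391-fold without replicate 4, and 124-fold with sample quality weights. Germ-free samples, measured beside them, averaged -4.75 ± 0.96 and CEC samples -2.83 ± 3.44 (SD, n = 10 each). The CEC median was -4.13, and CEC replicate 8, at 6.08, stood alone above the others at or below -1.13.

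Mm00472168_m1 was the assay with the smallest p and the only lower one whose group ranges did not overlap. Nissle samples ran from -0.02 over a median of 1.07 to 2.29, and conventional samples from 2.40 over a median of 5.58 to 6.44. Conventional replicate 5 alone lay near the Nissle samples, at 2.40, and the next conventional sample lay at 5.05. The difference was -4.29 ± 0.41 log2 units, or 19.6-fold (limma, adjusted p = 2.24e-10). The germ-free level, 2.83 ± 0.71 (SD, n = 10), lay between the 2 group means of 1.12 ± 0.78 and 5.41 ± 1.14. The CEC level, 0.41 ± 1.09 (SD, n = 10), lay below the Nissle mean. Group ranges were separate for 2 of the 215 tested assays (0.930%), this one and Mm01320260_m1.

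Mm00445845_m1 was lower in 8 of 10 Nissle samples than the conventional mean. Nissle samples ran from -4.53 over a median of -3.66 to 3.18, and conventional samples from -1.06 over a median of 2.99 to 4.21. Nissle replicates 4 and 5, at 3.11 and 3.18, lay among the conventional samples, and conventional replicate 7, at -1.06, lay among the Nissle samples. The difference was -4.68 ± 0.83 log2 units, or 25.6-fold (limma, adjusted p = 9.79e-05), and 62.6-fold without Nissle replicates 4 and 5. Germ-free samples averaged 2.31 ± 1.36 (SD, n = 10), close to the conventional mean of 2.68 ± 1.52. The CEC mean, -2.47 ± 1.30 (SD, n = 10), lay nearer the Nissle than the conventional mean. The range in CEC was -4.73 to -0.25, so the lower level was not found in Nissle samples alone.

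Mm01288386_m1 was a scarce template in Nissle mucosa, undetermined in replicates 9 and 10. It was also scarce in germ-free and CEC mucosa, with 5 samples undetermined in each group. The measured samples of these groups averaged -8.04 ± 0.68 and -7.90 ± 1.12 (SD, n = 5 each). The 8 measured Nissle samples ran from -8.93 over a median of -7.78 to -5.39, and the 10 conventional samples from -7.35 over a median of -5.66 to 3.31. Conventional replicates 5, 7 and 8, at 0.49, 3.31 and 2.64, stood far above the other 7, of which 4 lay within -5.75 to -4.91 and the rest at or below -6.45. The difference was -4.03 ± 1.20 log2 units, or 16.3-fold (limma, adjusted p = 0.0172). It was 9.55-fold without conventional replicate 7, 10.1-fold without replicate 8 and 44.4-fold with undetermined wells set at 37.67 cycles.

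Mm00440616_g1 and Mm00441127_m1 were lower in Nissle samples and ordered the conventional samples in nearly the same way. For Mm00440616_g1 the 9 measured Nissle samples ran from -8.76 over a median of -4.24 to -1.21, and conventional samples from -4.60 over a median of -0.36 to 3.24. For Mm00441127_m1 Nissle samples ran from -5.78 over a median of -2.75 to -0.11, and conventional samples from -2.90 over a median of 0.31 to 3.43. In both assays conventional replicates 6, 8 and 9 were the highest, replicates 3, 5 and 7 were the lowest, and Nissle replicate 3 was the highest of its group. The groups overlapped in both. The differences were -3.93 ± 1.23 log2 units, or 15.3-fold (limma, adjusted p = 0.0189), and -3.29 ± 0.93, or 9.78-fold (limma, adjusted p = 0.00874). Germ-free samples averaged -1.92 ± 2.57 and -1.63 ± 1.40 (SD, n = 10), between the Nissle and the conventional means of both assays. CEC samples averaged -0.61 ± 3.41 and 0.08 ± 2.92 (SD, n = 10), nearer the conventional means.

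The other 11 lower assays differed by 1.35-fold to 6.15-fold, with a median of 2.16-fold and adjusted p from 2e-05 to 0.0386 (limma).

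**Figure D4:**
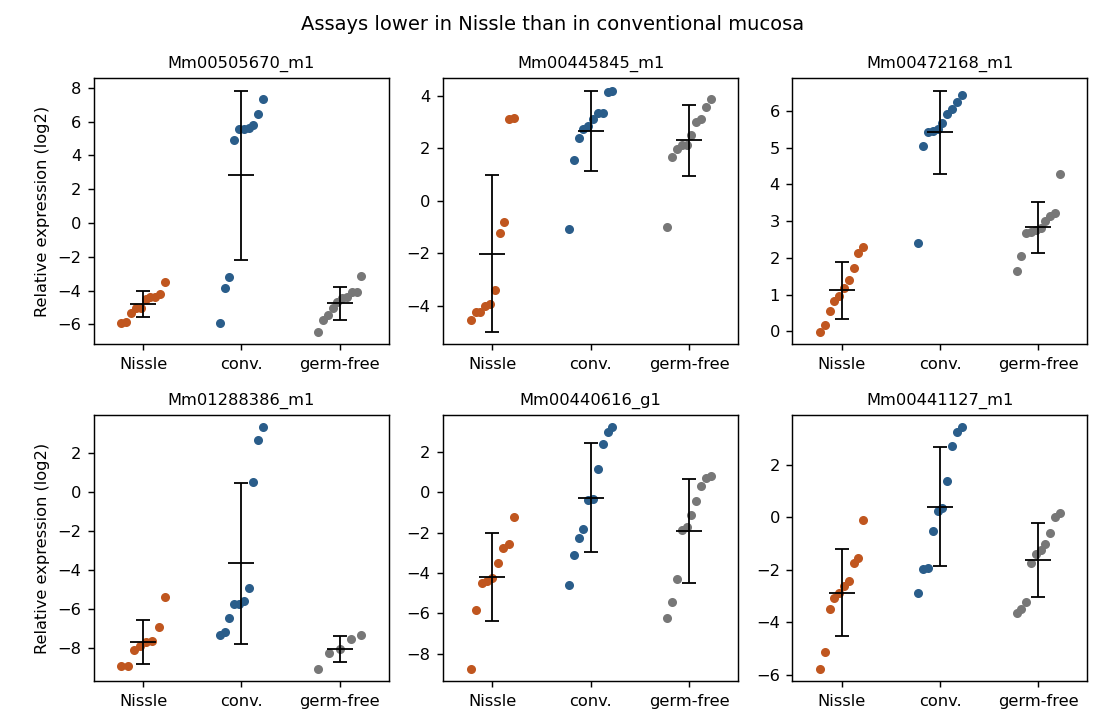
Relative expression (log2 units) of the 6 assays with the largest lower levels in Nissle, with 1 point for each measured sample of the Nissle, conventional and germ-free groups and the mean ± SD in black. Mm00472168_m1 is separate between Nissle and conventional samples, and Mm00505670_m1 and Mm01288386_m1 split the conventional samples.

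Mm00655850_m1 was the assay with the largest higher level in Nissle. Nissle samples ran from -4.17 over a median of -0.09 to 2.02, and the 9 measured conventional samples from -8.36 over a median of -6.16 to -3.63, while conventional replicate 6 was undetermined. Nissle replicates 1 and 6, at -4.10 and -4.17, reached into the conventional range, whose highest sample was replicate 1. The difference was 5.32 ± 1.34 log2 units, or 40-fold (limma, adjusted p = 0.00371), and 77.1-fold with the undetermined well set at 37.67 cycles. Germ-free samples averaged -5.73 ± 3.86 and CEC samples 1.62 ± 3.59 (SD, n = 10 each). The germ-free mean included replicate 31 at -14.89, and the germ-free median was -4.41.

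Mm01320260_m1 had separate group ranges, on few measured conventional samples. The 10 Nissle samples ran from -6.01 over a median of -3.39 to -1.13. The 5 measured conventional samples, replicates 2, 3, 4, 7 and 10, lay at -8.14, -8.77, -8.53, -7.69 and -8.25. The remaining 5 values of this group equalled a mean of its other values and were read as filled in, so the separation rests on this reading. The difference was 4.50 ± 1.59 log2 units, or 22.6-fold (limma, adjusted p = 0.0354). The call was lost without Nissle replicate 3 (adjusted p = 0.0588), without Nissle replicate 10 (0.0567), without Nissle replicates 4 and 5 together (0.0504), without normalization (0.0701), scaled to the 10 most stable assays (0.0674) and with the undetermined wells of the series at 37.67 cycles (0.156). Leaving out any of the 5 measured conventional samples, or reading Ct above 30 as undetermined, left too few to test. The measured germ-free samples ran from -7.52 over a median of 1.35 to 2.30, with 3 undetermined. CEC samples ran from -6.44 over a median of -2.43 to 4.97.

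Mm04214158_s1, Mm01962454_s1 and Mm00484464_s1 were higher in Nissle by 4.64-fold, 4.50-fold and 3.0-fold. All 3 assays lie within 1 exon and can detect genomic DNA, whose part in their values was not tested. For Mm04214158_s1 Nissle samples ran from -4.16 over a median of -2.90 to -1.67, and conventional samples from -6.80 over a median of -5.23 to -2.64. For Mm01962454_s1 the Nissle samples ran from -3.71 over -2.78 to -0.86 and the 9 measured conventional samples from -6.88 over -4.18 to -1.61. For Mm00484464_s1 the 9 measured Nissle samples ran from -3.0 over -1.93 to -0.38 and the conventional samples from -4.96 over -3.55 to -1.66. Conventional replicate 1 was the highest conventional sample in all 3 assays and lay within the Nissle range, and Nissle replicates 4, 5 and 6 were among the 4 lowest Nissle samples in each. The differences were 2.22 ± 0.54, 2.17 ± 0.64 and 1.59 ± 0.44 log2 units (limma, adjusted p = 0.00284, 0.0131 and 0.00852). The latter pair did not pass without normalization (adjusted p = 0.0603 and 0.119), and Mm00484464_s1 did not with the 10 most stable assays (0.0765).

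Mm00656925_m1 was higher in Nissle, where 1 sample lay far from the others. Nissle samples ran from -7.17 over a median of -5.78 to 1.02, where replicate 7 stood alone above the next sample at -4.47. The 9 measured conventional samples ran from -8.34 over a median of -7.45 to -4.92. The difference was 2.06 ± 0.70 log2 units, or 4.17-fold (limma, adjusted p = 0.0313), and 2.60-fold without Nissle replicate 7 (adjusted p = 0.023). The call was lost without conventional replicate 3 (0.0605), 4 (0.0508) or 6 (0.0588), without normalization (0.142), with the 10 most stable assays (0.0906), with Ct above 30 as undetermined (0.175) and in a fit of the 2 groups alone (0.0577, at an unchanged 4.17-fold). With undetermined wells at 37.67 cycles the difference was larger, 7.42-fold, and did not pass (adjusted p = 0.152).

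Of the higher assays, Mm00661938_m1 had the smallest p, and its change was small and even. The 9 measured Nissle samples ran from 2.23 over a median of 2.95 to 3.52 and the conventional samples from 1.38 over a median of 1.63 to 2.69. Only conventional replicates 5 and 7, at 2.69 and 2.49, lay within the Nissle range. The difference was 1.12 ± 0.22 log2 units, or 2.17-fold (limma, adjusted p = 0.000388), and 1.66-fold without normalization (adjusted p = 0.176). Mm04209483_m1, picked out because it passed under all 5 normalizers, averaged 3.49 ± 0.84 in Nissle and 1.93 ± 0.61 in conventional samples (SD, n = 10 each), which is 2.95-fold higher (limma, adjusted p = 0.000503). Apart from the 7 assays chosen by size or smallest p, 32 assays were higher in Nissle, by 1.28-fold to 2.95-fold with a median of 1.65-fold and adjusted p from 0.00045 to 0.0452. Without Nissle replicate 10 the higher assays numbered 25 in place of 39.

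**Figure D5:**
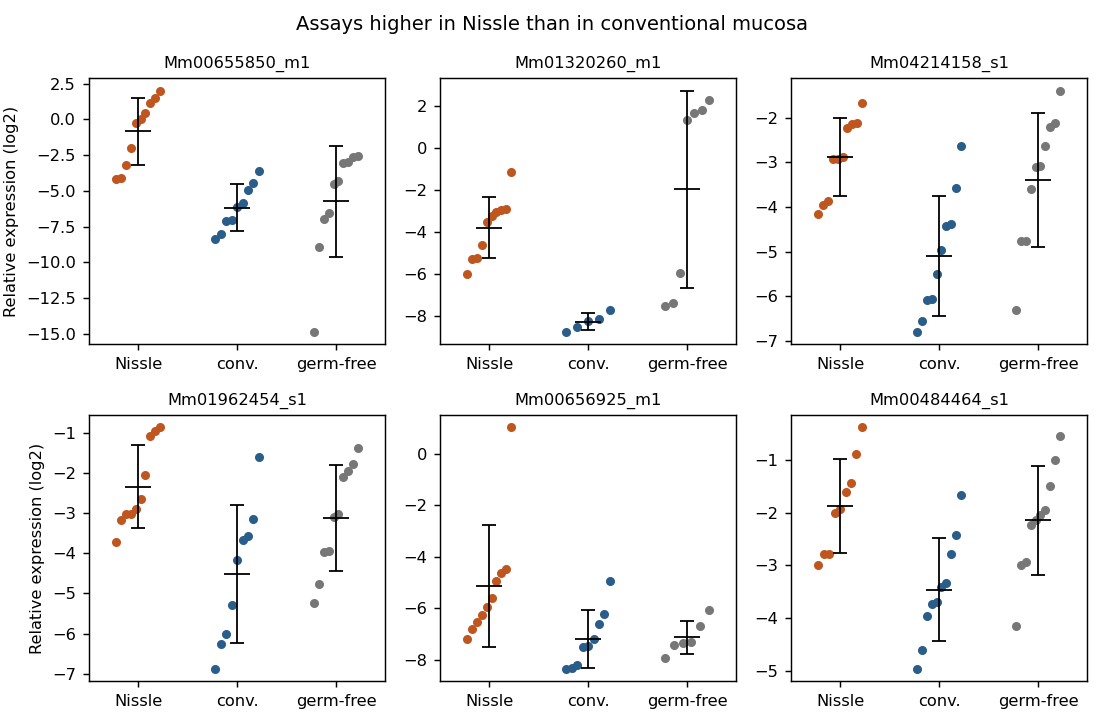
Relative expression (log2 units) of the 6 assays with the largest higher levels in Nissle, with 1 point for each measured sample of the Nissle, conventional and germ-free groups and the mean ± SD in black. For Mm01320260_m1 5 conventional samples were measured, all below the lowest Nissle sample.

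Calls on the sample median scale were counted by the level of the template, and differences between levels were not tested. Over all 215 tested assays 39 were higher in Nissle (18.1%) and 17 lower (7.91%). Of the 39 higher calls, 36 did not pass under every normalizer. The tested assays were split into 3 classes by mean Ct. In the class with the lowest Ct (72 assays, 14.38 to 21.13 cycles) 20 were higher and 4 lower in Nissle, and their median difference was 0.42 log2 units. In the middle class (71 assays, 21.16 to 24.00 cycles) 8 were higher and 10 lower, around a median of 0.04. In the class with the highest Ct (72 assays, 24.07 to 29.90 cycles) 11 were higher and 3 lower, around a median of 0.09. The SD between samples was larger at high Ct, with a median of 0.91 in Nissle and 0.84 in conventional samples at the highest Ct, against 0.57 and 0.38 at the lowest. By the type given in the assay ID, 46 of the 180 tested m1 assays changed (25.6%), whose probe spans an exon junction. Of the 18 tested s1 assays, which lie within 1 exon and can detect genomic DNA, 4 changed (22.2%), all higher. Of the 15 tested g1 assays, which may also detect genomic DNA, 6 changed (40%). The part of genomic DNA in these values was not tested.

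Nissle samples differed more from each other than conventional samples did in 155 of the 215 assays, and conventional samples in 60. The median SD was 0.61 log2 units in Nissle and 0.46 in conventional samples. Nissle replicate 8 had a sample quality weight of 0.204, against 0.527 to 1.376 for the other Nissle samples. Its part in the wider spread was not tested. The SD was more than 2 times larger in Nissle for 24 assays and in conventional samples for 7. The largest Nissle SD, 4.14, was that of Mm00446420_m1, picked out for it, and came from 1 sample: Nissle replicate 1 lay at 6.90 and the other 9 between -7.16 and -5.25, with conventional samples between -7.44 and -4.82. Its groups did not differ past the threshold (1.54 ± 1.52 log2 units; limma, adjusted p = 0.471). High values of Mm00446420_m1 also stood in germ-free and CEC samples, up to 6.65 and 6.29, over medians of -5.64 and -5.02. Their SDs were 4.10 and 3.83 (n = 10 each). The largest conventional SD, 5.01, was that of Mm00505670_m1 with its 7 high and 3 low samples.

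Of the 159 assays that did not pass, 93 had a 95% interval of the difference within 2-fold in both directions, and 26 of these lay within 1.5-fold. For another 54 the interval reached past 2-fold but not 4-fold, and for 12 it reached past 4-fold. In 20 assays at least 1 of the 20 samples was undetermined. Detection did not differ past the threshold in any of them (0 of 20, 0%; Fisher's exact test, two-sided, smallest adjusted p = 0.842, and 0 at an unadjusted p under 0.05). The widest gaps, of 4 samples and named after they had been seen, were those of Mm00521423_m1, detected in 10 of 10 Nissle and 6 of 10 conventional samples, Mm00524818_m1, detected in 6 and 10 (exact p = 0.0867 each), and Mm99999071_m1, detected in 2 and 6 (exact p = 0.17). In all 20 samples 2 assays were undetermined. Altogether 9 of the 224 assays had too few measured samples for the test.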

How the data were processed

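Per the labels' protocols, total RNA of colonic mucosa (mirVana kit) was assayed by real-time PCR on a custom OpenArray of TaqMan assays. The deposited table holds raw Ct values, another unit than counts, in PCR cycles, which stand on a log2-like scale, per the file headers; the header calls it a truncated example. The sources used here do not state the threshold settings. Ct of 40 was read as undetermined. Values equal within 1e-07 cycles to the mean of their group's other values (153), or of all but 1 (3), were read as filled in. Both were left missing as assay values, while filled-in values stayed in the sample median that served as normalizer. Samples were grouped by title, and columns were matched to titles.

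Differences were fitted with limma 3.58.1 (R 4.3.3; lmFit, eBayes) over all 4 groups with a Nissle minus conventional contrast, for assays measured in 5 or more samples of both. P-values were adjusted by Benjamini-Hochberg over all 215 assays with a threshold of 0.05, and ± on a difference is its standard error. The group's sample median Ct was compared by permutation (100000 resamples) and detection by Fisher's exact test with scipy 1.17.1. The code was tested on simulated data. Named assays are the 6 largest changes past the threshold in each direction and the smallest p in each; others are marked where they appear. The members, the fit and the alternatives were chosen with earlier results of these data known. Planned gene lists and cell type markers were not used, since no table pairs the IDs with genes. Replicate numbers are shared by the groups, but the deviations of same-numbered samples correlated above 0.1 in 3 of 10 pairs, so they were not treated as pairs. The number of samples limits the precision.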

Additional observations from a re-analysis of the deposited data

Results flagged for a closer look

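In 4 of 34 groups of sample values examined, 1 sample stood apart from the other samples of its group by Dixon's criterion. Chance alone meets this criterion in about 1 in 20 groups. The 4 assays had been named for a large difference or a large spread, so this rate cannot judge the count. For Mm00656925_m1 Nissle replicate 7 lay at 1.02, above the other Nissle samples at -7.17 to -4.47. For Mm00446420_m1 Nissle replicate 1 lay at 6.90, above the others at -7.16 to -5.25. The highest germ-free and CEC samples of this assay lay at 6.65 and 6.29. For Mm00445845_m1 conventional replicate 7 lay at -1.06, below the others at 1.58 to 4.21. For Mm00472168_m1 conventional replicate 5 lay at 2.40, below the others at 5.05 to 6.44.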

How the results depend on the processing

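The count of 56 changed assays ranged from 41 to 66 when each Nissle or conventional sample was left out in turn. It was 21 without normalization, 89 with sample quality weights (62 higher, 27 lower) and 33 with the replicate number as a block in a fit of the 2 groups (19 higher, 14 lower; 32 of the 33 were among the 56). In the block fit Mm00656925_m1 and Mm00440616_g1 did not pass (limma, adjusted p = 0.0901 and 0.0681; 4.01-fold and 15.4-fold), and Mm01320260_m1 was 38.0-fold higher (adjusted p = 0.005). Same-numbered samples had a median correlation of deviations of -0.02 (-0.39 to 0.33 over 10 pairs), and 1 of 10 Nissle samples correlated best with its own number. Leaving out CEC replicate 6, which enters the shared estimate of the spread, gave 70 changed assays that included all 56, and leaving out Nissle replicates 4 and 5 gave 72, of which 54 were among the 56. The fit of the 2 groups alone gave 62, of which 48 were among the 56. Scaled to the 10 most stable assays, 55 changed, of which 27 were among the 56, all in the same direction. Robust moderation, filled-in values as deposited, undetermined wells at 37.67 cycles, Ct above 30 as undetermined, the 170 assays measured in all 20 samples and a looser filter gave between 44 and 58. Without normalization and with the 10 most stable assays Mm00656767_g1, 1 of the 39 higher assays, changed sign. The difference in sample median Ct was 0.34 cycles over 203 assays and 0.41 over the 153 assays measured in all samples (permutation test, two-sided, p = 0.0374). The cause of these shifts was not tested. The larger SD stood in Nissle in 155 assays with filled-in values left out or used, an alternative added after the data had been seen. The median spread between samples was largest in the class of assays with the highest Ct.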
